A study of Mus musculus with 4 samples.

Results

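The genes described here are the nuclear-encoded genes of respiratory chain subunits, chosen by name alone: symbols that begin with Nduf followed by a, b, c, s or v, with Uqcr, with Cox4 to Cox8 or with Atp5, pseudogene symbols left out, and at least 20 unique molecular identifiers (UMIs, each counting 1 captured RNA molecule) over the 4 libraries. Of 41862 gene columns, 90 matched the names and 87 met the rule: 38 genes of complex I, 8 complex I assembly factors whose names begin with Ndufaf, 8 of complex III, 16 of complex IV and 17 of complex V. Cox7b2, with 1 UMI, Cox8c, with 2 UMIs, and Ndufb1-ps, whose symbol marks a pseudogene, were left out. The 87 genes held between 49 UMIs (Cox7a1) and 8106 UMIs (Cox4i1) in the barcodes analysed.

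The mitochondrial respiratory chain passes electrons from NADH through complex I, and from succinate through complex II, to complex III, cytochrome c and complex IV, where oxygen is reduced. The proton gradient built on the way drives complex V, the ATP synthase. Most subunits are encoded in the nucleus and imported, while the mitochondrial genome encodes the catalytic cores of complex IV and parts of complexes I, III and V, so that both genomes contribute to the same complexes. Several nuclear subunits of complex IV, the c subunit of complex V and Ndufa4 exist in more than 1 isoform, with some isoforms known for restriction to muscle, lung, testis or low-oxygen conditions.

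RNA was captured in droplets by inDrops. The cells were sorted from CNS tissue of C57BL6 mice that carried Aldh1l1CreERT2-TdTomato, a tamoxifen-dependent Cre driven by an astrocyte promoter with a red reporter. TdTomato+ cells were stained for LAMP1, a lysosomal membrane protein that appears on the surface after lysosomes fuse with it, and for TRAIL, a death receptor ligand. Naive and EAE mice each gave a TRAIL- and a TRAIL+ library, so there were 4 groups, all LAMP1+ by their labels, with 1 library each. EAE, experimental autoimmune encephalomyelitis, is an autoimmune model of multiple sclerosis; mice received 150 µg of a myelin peptide (MOG35-55) in complete Freund's adjuvant and were taken at the peak of disease, with 3 naive and 3 EAE mice in the series. The sources used here do not give age, sex, the dosing of tamoxifen or whether mice were pooled in a library. With 1 library per group there is no replicate check and no test. Every interval is an exact 95% interval for counting error only, and differences between animals are not measured.

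Of 12987 listed barcodes, 7899 had at least 500 UMIs and at most 20% mitochondrial UMIs, between 1597 and 2259 per library, with library totals of 2856696 to 3984975 UMIs. The labels call the cells astrocytes, but only 199 barcodes fell in the astrocyte-like class, against 4166 microglia-like, 1722 endothelial-like, 1039 pericyte-like, 479 monocyte/macrophage-like, 140 choroid plexus-like, 129 oligodendrocyte-like and 25 erythroid barcodes. Classes came from clusters named by standard markers, and the members and mitochondrial genes took no part in the clustering. The classes were spread unevenly: the endothelial-like barcodes numbered 1162 (naive) and 499 (EAE) in the TRAIL- libraries, but 58 and 3 in the TRAIL+ libraries. The members are therefore compared within classes and only in sums of at least 50 barcodes. Pairs of libraries shared 23 to 40 kept barcode sequences, and leaving these out moved no summed member ratio by more than counting error. Sex-linked transcripts divided the libraries by disease state. In microglia-like barcodes Xist stood at 11.8 and 8.95 counts per 1000000 UMIs (CPM) in naive TRAIL- and naive TRAIL+ but at 1293 and 1139 CPM in EAE TRAIL- and EAE TRAIL+, and the sum of Ddx3y, Eif2s3y, Kdm5d and Uty was 238, 264, 19.4 and 21.0 CPM in the same order. Endothelial- and pericyte-like barcodes showed the same division, so disease state and the sex of the mice cannot be told apart in any EAE over naive comparison.

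The members took very different shares of the transcriptome in different cell classes. Within each library their summed level was lowest in microglia-like barcodes, at 5086 CPM in naive TRAIL-, 4971 CPM in naive TRAIL+, 8551 CPM in EAE TRAIL- and 6634 CPM in EAE TRAIL+. Monocyte/macrophage-like barcodes held 7621 CPM in naive TRAIL+, 10668 CPM in EAE TRAIL- and 11208 CPM in EAE TRAIL+. Endothelial-like barcodes lay close together, with 11258 and 11039.6 CPM in the naive TRAIL- and TRAIL+ libraries, against 12453 CPM in EAE TRAIL-. The oligodendrocyte-like sum of naive TRAIL- was 13157 CPM and the astrocyte-like sum of naive TRAIL+ was 16792 CPM. Pericyte-like barcodes of the TRAIL- libraries held 19965 CPM (naive) and 20329.8 CPM (EAE). Far above all of these stood the choroid plexus-like barcodes of naive TRAIL-, with 56803 CPM (56009 to 57604), from 90 barcodes. The intervals of the 2 naive endothelial-like sums overlapped, as did those of the 2 naive microglia-like sums, whereas within naive TRAIL- no interval of 1 class overlapped that of another.

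**Figure D1:**
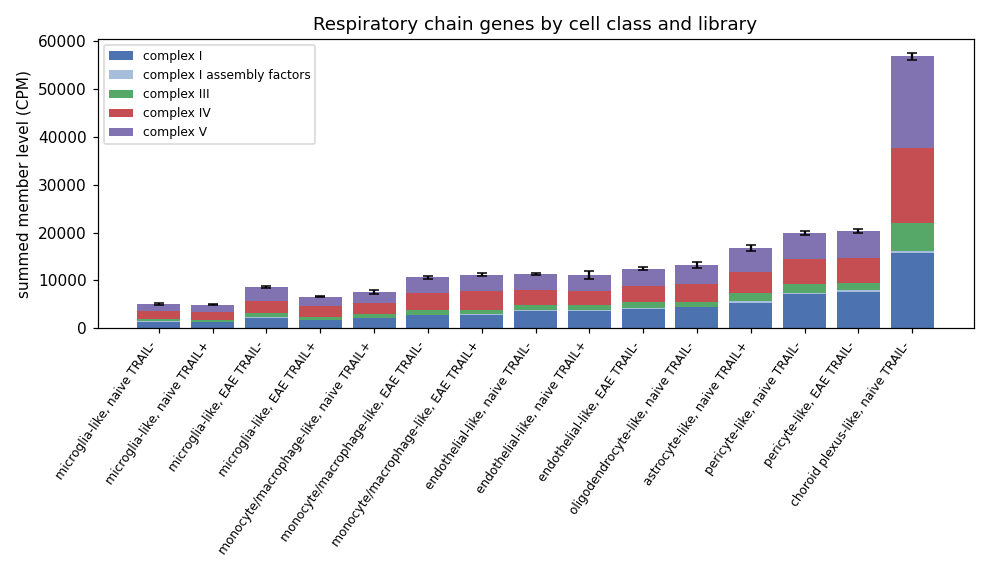
Summed level of the 87 members in CPM for each cell class and library with at least 50 barcodes, stacked by complex, with 95% counting intervals of the total as error bars. Microglia-like sums, at 4971 to 8551 CPM, are the lowest within each library, and the choroid plexus-like sum is highest, at 56803 CPM.

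Complexes I, IV and V each made up a large part of every sum. In the choroid plexus-like sum complex V was the largest, at 19047 CPM (18589 to 19514), with complex IV at 15704 CPM and complex I at 15684 CPM. In pericyte-like barcodes of naive TRAIL- complex I led instead, at 7255 CPM (7020 to 7496), ahead of complex V at 5477 CPM and complex IV at 5245 CPM. A single gene, Ndufa4l2, made up 1476 CPM of this, and without it complex I stood at 5779 CPM (5569 to 5994). With Ndufa4 and Ndufa4l2 counted in complex IV, where the Ndufa4 protein was later found, the order turned, with complex IV at 6784 CPM (6557 to 7017) and complex I at 5716 CPM. The 8 assembly factors, which help build complex I but do not remain in it, came to 575 CPM in choroid plexus-like and 224 CPM in pericyte-like barcodes of naive TRAIL-.

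Single barcodes of neighbouring classes overlapped. Among barcodes with at least 1000 UMIs, the median share of UMIs on members was 0.449% in microglia-like barcodes of naive TRAIL-, with 10th and 90th percentiles of 0.192% and 0.871%. In pericyte-like barcodes of the same library the median was 1.99% (0.779% to 3.08%), and in choroid plexus-like barcodes 5.10% (3.18% to 7.36%). The 10th percentile of pericyte-like barcodes thus lay below the 90th percentile of microglia-like barcodes, whereas that of choroid plexus-like barcodes lay above the 90th percentile of pericyte-like barcodes of that library. Depth differed too: median UMIs in naive TRAIL- were 3200.5 in choroid plexus-like, 1517 in microglia-like and 811 in pericyte-like barcodes. The part of depth in the member shares was not tested.

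**Figure D2:**
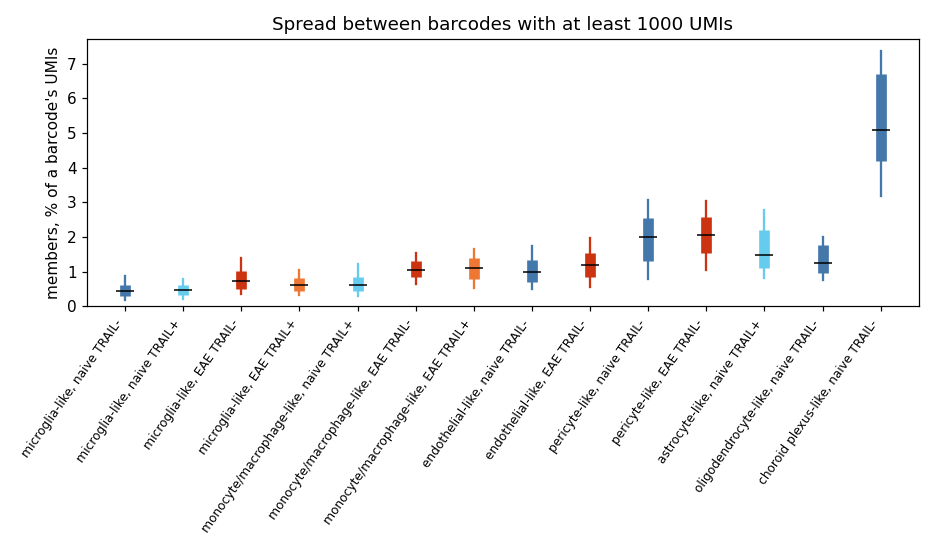
Share of a barcode's UMIs on the 87 members, in percent, for barcodes with at least 1000 UMIs; black lines are medians, thick bars run from the 25th to the 75th percentile, thin bars from the 10th to the 90th, and colours mark the 4 libraries. Medians run from 0.449% in microglia-like to 5.10% in choroid plexus-like barcodes of naive TRAIL-.

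Naive TRAIL- held 5 classes of at least 50 barcodes, which allowed each member to be ranked within 1 library. Of 87 members, 81 were highest in choroid plexus-like barcodes and 67 were lowest in microglia-like barcodes. Other genes were not ranked, so these counts have no share of all genes beside them. Among members with at least 50 UMIs in the 5 sums, the exceptions at the top were Ndufa4l2, Cox4i2, Ndufaf2 and Ndufaf3, highest in pericyte-like barcodes, and Ndufa10, highest in oligodendrocyte-like barcodes. For 2 of these the pericyte-like lead over choroid plexus-like barcodes lay within counting error. Ndufaf2 stood at 50.4 against 49.4 CPM (28.8 to 79.1) and Ndufaf3 at 66.5 against 58.1 CPM (35.5 to 89.7). For Ndufa10 the intervals of oligodendrocyte-like barcodes, at 226 CPM (153 to 323, 30 UMIs), and choroid plexus-like barcodes, at 142 CPM (105 to 188), also overlapped. The lowest class was the oligodendrocyte-like for 13 members, and 4 members were tied. The oligodendrocyte-like levels of these 13 rested on few UMIs, from 0 (Ndufaf1 and Ndufaf6) to 20 (Cox7a2l). Atp5a1, the alpha subunit of complex V, was lowest in endothelial-like barcodes at 291 CPM, against 324 CPM in oligodendrocyte-like and 330.0 CPM in microglia-like barcodes, whose levels differed by less than counting error, and it reached 626 CPM in pericyte-like and 1098 CPM in choroid plexus-like barcodes. Over all sums and libraries the widest range within complex IV was that of Cox8a, a small structural subunit, from 240 to 2867 CPM. Within complex III it was that of Uqcrb, which helps form the ubiquinone site, from 48.9 to 1107 CPM. Within complex V it was that of Atp5g1, which encodes the membrane ring subunit c, from 44.8 to 2513 CPM.

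Pericyte-like barcodes carried 3.93 times the summed member level of microglia-like barcodes in naive TRAIL- (3.76 to 4.10). A gene was called at a fold of 1.5 among those past a floor, a mean of 50 CPM over the pair and 10 UMIs expected in the smaller sum; since the mean is taken over the pair, a member could pass through its higher class alone, and the summed ratio uses all 87. In this pair 70 of 87 members passed, with 67 called higher and 0 lower, where 41.4% of all 3936 genes past the floor were called higher and 30.2% lower. Complex I showed the widest gap, at 5.22 times (4.81 to 5.66), ahead of complex V at 3.56 and complex IV at 3.45. Without Ndufa4l2 the complex I ratio was 4.18 (3.85 to 4.54), and with Ndufa4 and Ndufa4l2 counted in complex IV the ratios were 4.32 (3.97 to 4.70) for complex I and 4.27 (3.95 to 4.61) for complex IV. The mitochondrially encoded protein genes differed less, at 1.59 times (1.55 to 1.62), and cytosolic ribosomal proteins were lower, at 0.67 (0.66 to 0.68), with 33 of 74 called lower and 0 higher. Among single members, Ndufa7, an accessory subunit of complex I, stood at 13.8 CPM in microglia-like and 209 CPM in pericyte-like barcodes, 15.2 times higher (7.14 to 38.8). That microglia-like level came from 7 UMIs. In microglia-like barcodes of naive TRAIL+ Ndufa7 stood higher, at 34.9 CPM from 109 UMIs. Ndufb4, another accessory subunit, stood at 29.5 and 296 CPM, and Cox6c, a nuclear subunit of complex IV, at 74.6 and 723 CPM.

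Endothelial-like barcodes held 2.21 times the summed level of microglia-like barcodes in naive TRAIL- (2.12 to 2.31), with 45 of 57 members past the floor called higher and 0 lower, against 37.4% of all genes called higher and 29.1% lower. Ndufa7, set against the same microglia-like level from 7 UMIs, was again among the widest, at 223 CPM against 13.8 CPM (16.2 times, 7.75 to 40.7). Cox5a, a regulatory subunit of complex IV, stood at 271 against 37.3 CPM, and Atp5j, part of the stalk of complex V, at 582 against 112 CPM. The mt- protein genes went the other way, at 0.90 of the microglia-like level (0.89 to 0.92). Pericyte-like over endothelial-like barcodes of the same library gave 1.77 (1.73 to 1.82), with 48 of 74 members called higher and 2 lower, where 30.2% of all genes were called higher and 26% lower. The 2 lower members were Ndufa4 and Ndufa6. In the EAE TRAIL- library the order of the 3 classes was the same, with narrower gaps to microglia. Endothelial-like over microglia-like barcodes gave 1.46 (1.41 to 1.51), with 40 of 66 members called higher and 3 lower, where 36.1% of all genes were called higher and 30.6% lower. Pericyte-like over microglia-like barcodes gave 2.38 (2.30 to 2.46), with 62 of 74 called higher and 3 lower, where 41.5% of all genes were called higher and 31.8% lower. Pericyte-like over endothelial-like barcodes gave 1.63 (1.58 to 1.68), with 33 of 74 called higher and 4 lower, where 31.8% of all genes were called higher and 27.3% lower.

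Astrocyte-like barcodes could be summed in naive TRAIL+ alone, from 148 barcodes. They held 3.38 times the member level of microglia-like barcodes of that library (3.26 to 3.50), with 63 of 65 members past the floor called higher and 1 lower, where 38.1% of all genes were called higher and 33.9% lower. Ndufa12, an accessory subunit of complex I, stood at 11.8 CPM in microglia-like and 193 CPM in astrocyte-like barcodes, 16.3 times higher (10.2 to 26.1). Ndufs5, an accessory subunit of complex I, stood at 21.8 and 229.8 CPM, 10.6 times higher (7.18 to 15.5). Atp5g3, 1 of the 3 genes of subunit c, stood at 65.9 and 565 CPM. The 1 lower member was Cox7a2l, which helps join complexes III and IV into supercomplexes, with 202 CPM in astrocyte-like and 339.9 CPM in microglia-like barcodes (0.59, 0.43 to 0.80). In this pair the tricarboxylic acid cycle genes were 2.98 times higher (9 of 12 called higher) and glycolysis genes 4.52 times (11 of 14 called higher, 1 lower), while cytosolic ribosomal proteins were at 0.40, with 70 of 72 called lower. The astrocyte-like sum also held 5423 CPM of the 15 microglia markers, and a scaling factor over all genes with a UMI lowered the member ratio to 1.85.

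Cox7a2l did not follow the order of the sums across classes. Its level was 316 to 377 CPM in the 4 microglia-like sums, 291 to 342 CPM in the 3 monocyte/macrophage-like sums, 233 to 284 CPM in endothelial-like sums, 222 and 219 CPM in pericyte-like sums, 151 CPM in oligodendrocyte-like barcodes and 381 CPM in choroid plexus-like barcodes. Outside choroid plexus-like barcodes, the classes highest in summed members were therefore not those highest in Cox7a2l.

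The mitochondrial genome encodes 13 subunits of complexes I, III, IV and V, and their transcripts were set beside the members. In microglia-like barcodes members made up 15.7% (15.1% to 16.2%) and 14.8% of the UMIs of both groups in the naive TRAIL- and TRAIL+ libraries, against 18.3% and 15.8% in the EAE libraries. In choroid plexus-like barcodes the share was 54.6% (54.0% to 55.1%), and of the 15 sums this was the only one in which members outnumbered the mt- protein transcripts. Monocyte/macrophage-like barcodes of EAE TRAIL- and EAE TRAIL+ stood at 30.3% and 32.9%, and astrocyte-like barcodes of naive TRAIL+ at 21.2%. Within the TRAIL- fraction, endothelial-like barcodes went from 31.3% (naive) to 23.6% (EAE), and pericyte-like barcodes from 31.5% to 24.8%. In both of these classes the mt- protein genes differed with disease state by more than the members did.

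**Figure D3:**
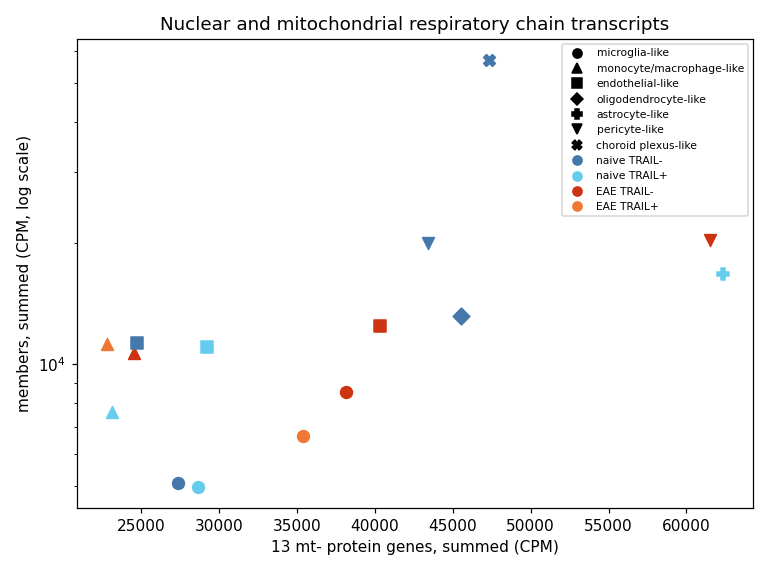
Summed CPM of the 87 members (vertical axis, log scale) against summed CPM of the 13 mt- protein genes (horizontal axis); each point is 1 cell class in 1 library, shapes mark classes and colours mark libraries. The choroid plexus-like point lies highest, at 56803 CPM of members and 47304 CPM of mt- genes, and the astrocyte-like point of naive TRAIL+ farthest right, at 62333 CPM of mt- genes.

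The isoform pairs divided the classes more sharply than the sums did. Ndufa4 encodes a subunit first assigned to complex I and later found with complex IV, and Ndufa4l2 (chr10:127514967-127517154, GRCm38, plus strand) is its hypoxia-responsive paralog, known in brain as a pericyte-enriched gene. Ndufa4l2 stood at 1476 CPM in pericyte-like barcodes of naive TRAIL- and 1547 CPM in those of EAE TRAIL-. In endothelial-like barcodes it was 18.8 and 62.2 CPM in the naive TRAIL- and TRAIL+ libraries, against 7.12 CPM in EAE TRAIL-, and in the 4 microglia-like sums it ranged from 0 to 7.86 CPM. Ndufa4 stood at 62.4 and 27.9 CPM in the 2 pericyte-like sums, against 257, 264 and 171 CPM in endothelial-like sums and 1101 CPM in choroid plexus-like barcodes. It did not run opposite to Ndufa4l2 in every class. Microglia-like sums held Ndufa4 at 58.8 to 100.2 CPM and monocyte/macrophage-like sums at 63.1 to 114.5 CPM, so both genes were low there. Ndufa4l2 thus made up 95.9% of the UMIs of the pair in pericyte-like barcodes of naive TRAIL- (94.3% to 97.2%, 764 UMIs) and 98.2% in EAE TRAIL- (97.0% to 99.0%), against 6.82% in endothelial-like barcodes of naive TRAIL- (4.27% to 10.2%). After each barcode had been thinned to 500 UMIs, 47.4% of pericyte-like barcodes of naive TRAIL- held an Ndufa4l2 UMI (62.0% before thinning), and 49.6% in EAE TRAIL- (66.7% before). In endothelial-like barcodes, where free RNA would add a background, the thinned shares were 0.947% and 0.2% in the same libraries, with median depths of 897.5 and 1048 UMIs against 811 and 971.5 UMIs in pericyte-like barcodes. The last bases of Ndufa4l2 overlap Shmt2 on the opposite strand, and the sources used here do not say whether the counting used strand; Shmt2 was at 48.3 and 25.9 CPM in the 2 pericyte-like sums. Cox4i1, Uqcrb, Ndufb8, Atp5o and Ndufa13 also overlap other annotated genes, so their levels carry the same uncertainty.

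Cox4i2 is the lung- and hypoxia-associated isoform of the regulatory subunit 4 of complex IV, and Cox4i1 is the ubiquitous one. Cox4i2 stood at 375 CPM in pericyte-like barcodes of naive TRAIL- and 448 CPM in those of EAE TRAIL-, and at no more than 14.2 CPM in any other sum. There its share of the pair was 29.4% (25.9% to 33.2%) in the naive library and 38.4% (34.4% to 42.5%) in the EAE library, and the 2 intervals did not overlap. That difference came with Cox4i1 at 898 CPM (naive) and 719.5 CPM (EAE), a ratio of 0.80 (0.70 to 0.92), and with Cox4i2 at a ratio of 1.20 (0.98 to 1.46), neither of which reached the 1.5-fold call. The 2 isoforms thus differed in their pairs: in pericyte-like barcodes Ndufa4 was below its levels in endothelial-like barcodes, while Cox4i1 was above the 483 and 550.1 CPM of endothelial-like barcodes of the same libraries.

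**Figure D4:**
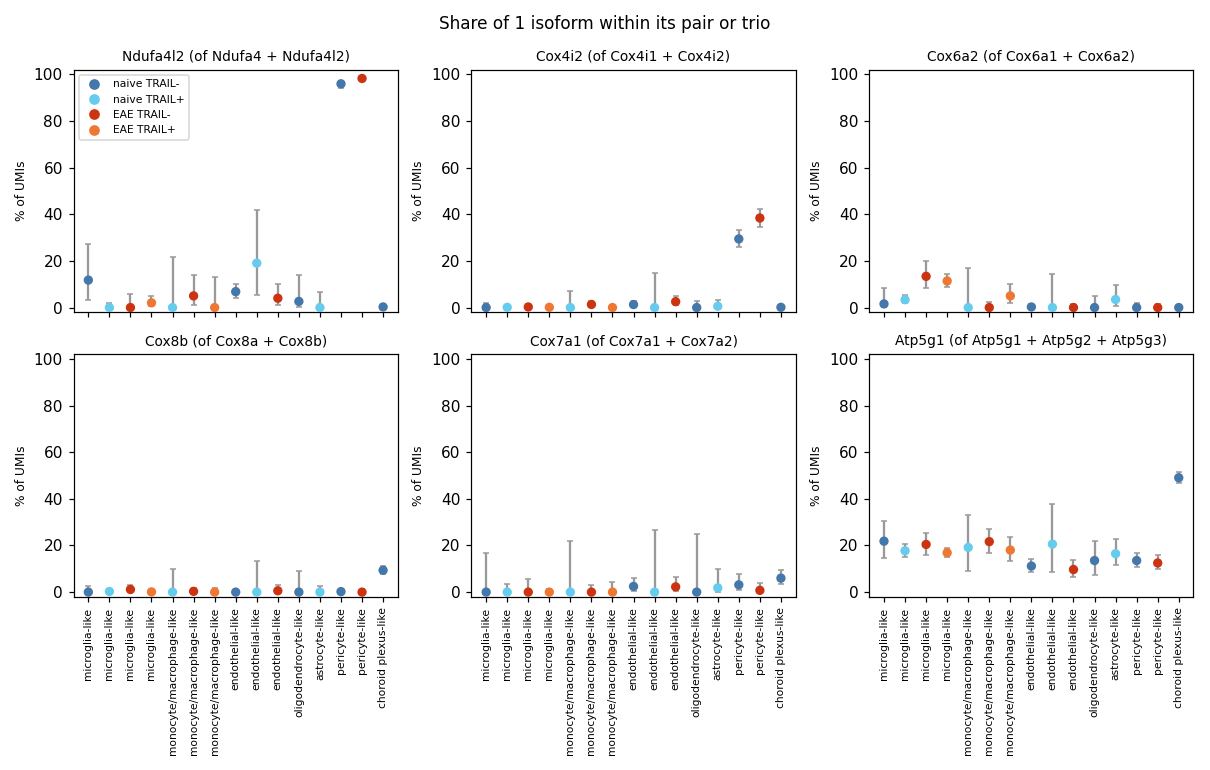
Share of 1 isoform among the UMIs of its isoform pair or trio, in percent, for every cell class and library with at least 50 barcodes; bars are 95% binomial counting intervals and colours mark libraries. Ndufa4l2 reaches 95.9% and 98.2% in the 2 pericyte-like sums, Cox4i2 29.4% and 38.4% there, Cox6a2 13.4% and 11.4% in the 2 EAE microglia-like sums, and Atp5g1 49.0% in choroid plexus-like barcodes.

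Choroid plexus-like barcodes carried isoforms best known from muscle and testis. Cox8b (chr7:140898945-140900446, GRCm38, minus strand), the muscle-type isoform of subunit 8, stood at 296 CPM there and at no more than 4.85 CPM in any other sum, which made 9.37% of Cox8a plus Cox8b (7.70% to 11.3%). Cox6b2, the testis-associated isoform of subunit 6b, stood at 131 CPM, 15.5% of its pair (11.5% to 20.2%), and at no more than 24.2 CPM elsewhere. Cox7a1, another muscle-type isoform, stood at 49.4 CPM, 5.99% of its pair with Cox7a2 (3.53% to 9.41%), and at 8.06 CPM or less elsewhere. In each of these pairs the ubiquitous isoform remained the larger part.

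The 3 genes Atp5g1, Atp5g2 and Atp5g3 encode the same mature subunit c of the proton-driven ring with different import peptides, and the leading gene differed between classes. In choroid plexus-like barcodes Atp5g1 led with 49.0% of the trio (46.7% to 51.4%) at 2513 CPM, whereas in the other sums it held 9.69% to 21.8%. In microglia-like barcodes Atp5g2 led, with 56.2% in naive TRAIL+ (52.7% to 59.7%) and with 53.4% and 55.0% in the TRAIL- and TRAIL+ libraries of EAE. In naive TRAIL-, from 119 UMIs, Atp5g2 and Atp5g3 were 40.3% and 37.8%, which overlap within counting error. Atp5g3 led in pericyte-like barcodes of both libraries (65.3% and 64.7%), in astrocyte-like barcodes (65.4%), in oligodendrocyte-like barcodes (58.3%) and in endothelial-like barcodes of naive TRAIL- (53.4%). In monocyte/macrophage-like barcodes Atp5g3 held 45.7% in EAE TRAIL-, while in EAE TRAIL+ its 42.1% and the 39.9% of Atp5g2 overlap within counting error.

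Upstream sequence was compared because the members were high or low together across classes. The RefSeq promoter table (GRCm38.p6) held 71 of the 87 members, and in each the 250 bases before the first listed start were searched on both strands for the core of the NRF1 site (GCGCA and GCGC with 1 base between them), an ETS core (CCGGAAG) and the CCAAT box (CCAAT), with overlapping matches counted for each motif. NRF1 and the ETS factor GABP are known regulators of respiratory chain genes. The NRF1 core was found in 11 of 71 member promoters (15.5%) and in 3.86% of all 27025 promoters, the ETS core in 12 (16.9%) against 7.05%, and CCAAT in 31 (43.7%) against 34.5%. The 4 promoters shown are those of Ndufs5 and Cox6a1, which hold an NRF1 core, and of the ubiquitous and muscle-type pair Cox8a and Cox8b, of which Cox8a holds 1 CCAAT box and Cox8b none of the 3 motifs. They lie at chr4:123718187-123718436 (Ndufs5), chr5:115348959-115349208 (Cox6a1), chr19:7217617-7217866 (Cox8a) and chr7:140900447-140900696 (Cox8b), all on the minus strand, written 5′ to 3′ with motif matches on either strand in capitals.
Ndufs5: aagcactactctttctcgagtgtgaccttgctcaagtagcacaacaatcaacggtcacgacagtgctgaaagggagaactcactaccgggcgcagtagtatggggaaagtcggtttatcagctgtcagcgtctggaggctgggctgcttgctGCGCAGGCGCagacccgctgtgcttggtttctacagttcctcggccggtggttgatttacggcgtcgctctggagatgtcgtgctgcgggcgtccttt
Cox6a1: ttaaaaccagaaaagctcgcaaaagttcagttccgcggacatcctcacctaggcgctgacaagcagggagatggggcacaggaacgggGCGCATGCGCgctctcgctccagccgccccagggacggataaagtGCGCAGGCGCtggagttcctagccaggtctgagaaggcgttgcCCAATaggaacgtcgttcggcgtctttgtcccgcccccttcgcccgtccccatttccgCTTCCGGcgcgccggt
Cox8a: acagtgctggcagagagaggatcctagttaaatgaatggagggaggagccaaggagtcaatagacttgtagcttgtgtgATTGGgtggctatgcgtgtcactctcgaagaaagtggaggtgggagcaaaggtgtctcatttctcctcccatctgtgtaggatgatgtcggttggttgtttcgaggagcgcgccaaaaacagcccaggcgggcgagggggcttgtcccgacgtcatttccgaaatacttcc
Cox8b: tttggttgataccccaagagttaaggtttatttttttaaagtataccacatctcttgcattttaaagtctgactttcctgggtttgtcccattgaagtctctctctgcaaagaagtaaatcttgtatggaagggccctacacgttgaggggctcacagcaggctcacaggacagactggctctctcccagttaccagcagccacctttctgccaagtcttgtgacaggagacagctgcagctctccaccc

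A match is a string of letters and not a measured site. Ndufa4l2, Cox4i1, Cox4i2, Cox6a2, Cox6c, Uqcrb and Atp5a1 were among the 16 members without an entry. Cox6a1 itself was at 124 to 199 CPM in microglia-like sums and 1072 CPM in choroid plexus-like barcodes, and Ndufs5 at 21.6 to 42.0 and 625 CPM in the same sums.

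In EAE, microglia-like barcodes had higher member levels than in naive libraries, in both TRAIL fractions. In the TRAIL+ fraction, with 1899 naive and 1633 EAE barcodes, the summed level went from 4971 to 6634 CPM, 1.33 times higher in EAE (1.31 to 1.36). Of 87 members 37 passed the floor, of which 11 were called higher and 0 lower, where 8.4% of the 3213 genes past the floor were called higher and 5.54% lower. The median log2 ratio of these 37 was 0.43, against -0.05 for all genes past the floor. The 4 complexes were alike, at 1.35 for complex I, 1.34 for complex III, 1.36 for complex IV and 1.30 for complex V, and the assembly factors were at 1.13 (0.96 to 1.33). Without the barcodes of a fine cluster found mostly in EAE (cluster 12) the ratio was 1.25 with 5 members called, and with factors over all genes with a UMI it was 1.20 with 3 called.

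The members called were spread over all 4 complexes. Cox7a2, the ubiquitous isoform of subunit 7a, rose from 35.5 to 79.2 CPM (2.23 times, 1.78 to 2.81). Cox5b, a zinc-binding nuclear subunit of complex IV, rose from 48.0 to 91.7 CPM (1.91 times, 1.57 to 2.34). Cox4i1 rose from 358 to 553.5 CPM (1.55 times, 1.43 to 1.67). In complex I, Ndufa3, Ndufa6 and Ndufv3 rose between 1.60 and 1.82 times, Ndufa6 from 99.8 to 166 CPM. In complex III, Uqcrb and Uqcrfs1, the Rieske iron-sulfur protein, rose 1.63 and 1.61 times. In complex V, Atp5g3 rose from 65.9 to 107 CPM and Atp5k, a small subunit of the membrane part, from 50.2 to 80.2 CPM. Several catalytic or core subunits were not called: Atp5a1 stood at 274 and 255 CPM (0.93, 0.85 to 1.03), Uqcrc1 at 56.0 and 57.0 CPM (1.02, 0.82 to 1.26) and Atp5b at 131 and 174 CPM (1.33, 1.17 to 1.51). Ndufc1, chosen after its values were seen and below the floor, went from 10.2 to 39.9 CPM (3.90 times, 2.63 to 5.94).

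In the TRAIL- fraction, with 321 naive and 313 EAE barcodes, the sum went from 5086 to 8551 CPM, 1.68 times higher in EAE (1.60 to 1.76). Here 47 members passed the floor, with 31 called higher and 1 lower, where 19.1% of all genes were called higher and 21.3% lower. These sums were shallower, at 509084 and 618842 UMIs against 3127104 and 3280952 UMIs in TRAIL+. Judged by their own markers, 98.4% of the naive TRAIL- but 87.9% of the EAE TRAIL- barcodes kept the microglia-like class. The median log2 ratio was 0.81. Complexes IV and V were at 1.77 (1.63 to 1.93) and 1.78 (1.64 to 1.94), complex I at 1.59 and complex III at 1.48. Cox5a rose from 37.3 to 134 CPM (3.59 times, 2.16 to 6.27), Cox6c from 74.6 to 228 CPM (3.05 times) and Atp5g2 from 94.3 to 269.9 CPM (2.86 times). Ndufv2, a flavoprotein-arm subunit of complex I, was the 1 member called lower, from 64.8 to 42.0 CPM, with an interval that includes no difference (0.65, 0.37 to 1.12).

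Both fractions called 8 members higher: Atp5k, Cox4i1, Cox5a, Cox5b, Cox7a2, Ndufa3, Ndufa6 and Uqcrb, which are 72.7% of the calls in TRAIL+ and 25.8% of those in TRAIL-. The fractions are not replicates of each other: the sources used here do not say that they came from separate mice, and both carry the same division in sex-linked transcripts. Of the 37 members past the floor in both, 33 were above 0 in both on the log2 scale and 1 was below 0 in both. The overlap was counted for members only, so no share of all genes stands beside these counts. Atp5a1, at 330.0 and 286 CPM in the TRAIL- fraction (0.87, 0.70 to 1.08), was again not called. Uqcrc1 was not called there either (1.17, 0.67 to 2.05), while Atp5b was called higher (1.69, 1.23 to 2.32).

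**Figure D5:**
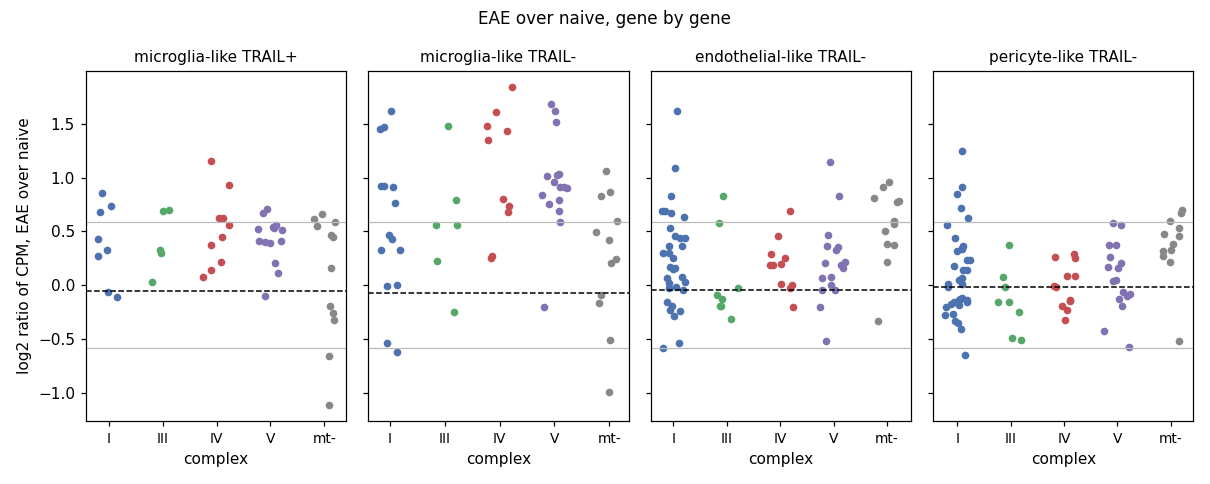
Log2 ratio of CPM, EAE over naive, for members past the floor by complex and for mt- protein genes past the floor, in 4 pairs of sums; each point is 1 gene, the dashed line is the median of all genes past the floor and the grey lines mark 1.5-fold. Member medians are 0.43 and 0.81 in microglia-like TRAIL+ and TRAIL- barcodes, and 0.17 and 0.01 in endothelial- and pericyte-like TRAIL- barcodes.

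The other genes of the pathway did not all move with the members. The mt- protein genes were 1.24 times higher in TRAIL+ microglia-like barcodes, with 3 called higher and 2 lower of 12. Their members split: mt-Co1, a catalytic subunit of complex IV, rose from 3998 to 6314 CPM, while mt-Nd4l fell from 648 to 299 CPM (0.46, 0.43 to 0.50) and mt-Nd5 from 1341 to 847 CPM, both subunits of complex I. In the TRAIL- fraction mt-Nd4l likewise fell from 603 to 302 CPM. The 4 subunits of complex II, all nuclear, summed to 0.79 in TRAIL+ (0.73 to 0.86; 0 of 3 called) and to 1.13 in TRAIL- (0.91 to 1.40). Tricarboxylic acid cycle genes were at 1.07 and 1.06, and glycolysis genes at 1.08 and 1.38. Cytosolic ribosomal protein genes resembled the members, at 1.29 in TRAIL+ with 13 of 75 called higher and at 1.55 in TRAIL- with 50 of 75 called higher.

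Composition within the class differed between the libraries. Fine cluster 12, led by C4b, Hcar2 and H2-Q7 and also by Xist, held 3 of 321 microglia-like barcodes in naive TRAIL-, 29 of 1899 in naive TRAIL+, 196 of 313 in EAE TRAIL- and 700 of 1633 in EAE TRAIL+, while clusters 4 and 8 held most of the naive barcodes. Within cluster 4 of the TRAIL+ fraction the summed level was 4909.6 CPM in naive and 6413 CPM in EAE (1.31 times, 1.26 to 1.36), with 8 members called higher and 1 lower of 37 past the floor, where 8.66% of all genes were called higher and 8.22% lower. Within cluster 8 it was 4961 and 6014 CPM (1.21 times, 1.17 to 1.25), with 3 of 34 called higher and 0 lower, where 7.64% of all genes were called higher and 5.09% lower. Cluster 4 of the TRAIL- fraction, with 204 naive and 62 EAE barcodes, gave 1.58 (1.44 to 1.74), with 10 of 13 called higher and 1 lower, where 23.4% of all genes were called higher and 22.7% lower. Within EAE TRAIL+, cluster 12 was 1.16 times above clusters 4 and 8 (1.13 to 1.19), with 2 of 43 called higher, Cox5a and Cox7c, and 0 lower, where 6.23% of all genes were called higher and 5.76% lower. Within EAE TRAIL- the same ratio was 1.14 (1.07 to 1.22), with 11 of 46 called higher and 5 lower, where 17.3% of all genes were called higher and 19.4% lower. The summed monocyte/macrophage markers in the class also moved, at 397 and 573 CPM in the TRAIL- and TRAIL+ libraries of naive mice against 1105 and 749 CPM in those of EAE mice, and their part in the member levels was not tested. By depth, the EAE sums lay above the naive sums of the same fraction in each of 3 strata: at 1000 to 2000 UMIs the TRAIL- levels were 5101 CPM (naive) against 8078 CPM (EAE), and the TRAIL+ levels 4775 against 6587 CPM.

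Between TRAIL fractions, naive microglia-like barcodes differed little: 4971 CPM in TRAIL+ against 5086 CPM in TRAIL- (0.98, 0.94 to 1.02), with 2 of 28 members past the floor called higher, Cox6c and Atp5g2, and 0 lower, where 2.96% of all genes were called higher and 6.45% lower. With factors over all genes with a UMI the ratio lay above 1, at 1.15 with 5 called. In EAE the TRAIL+ barcodes were lower, 6634 against 8551 CPM (0.78, 0.75 to 0.80), with 15 of 48 called lower and 0 higher, where 6.56% of all genes were called higher and 9.07% lower. Ndufb4 fell from 90.5 to 46.6 CPM (0.52, 0.38 to 0.71), Atp5j from 193.9 to 107 CPM (0.55, 0.45 to 0.68) and Cox6b1 from 153 to 88.7 CPM (0.58, 0.46 to 0.74). Complex V was at 0.74, complex I at 0.76, complex IV at 0.81 and complex III at 0.83, while the mt- protein genes were at 0.93 (0.91 to 0.94). Other cells' transcripts differed between the same sums: the choroid plexus markers summed to 677 CPM in EAE TRAIL- and 73.8 CPM in EAE TRAIL+, and members made up 1.20% and 0.696% of the UMIs of barcodes under 500 UMIs in those libraries. Their part in the difference was not tested. With only barcodes of at least 1% microglia marker UMIs the ratio was 0.83 with 6 members called, and with factors over all genes with a UMI it was 0.91 with 2 called. Within fine cluster 12 alone the ratio was 0.82 (0.79 to 0.85), with 11 of 49 called lower and 0 higher, where 7.35% of all genes were called higher and 11.2% lower.

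Vascular classes, measured in the TRAIL- fraction alone, showed smaller differences with EAE. In endothelial-like barcodes the sum went from 11258 to 12453 CPM (1.11 times, 1.07 to 1.14), with 11 of 69 members past the floor called higher and 1 lower, where 9.29% of all genes were called higher and 12.7% lower. Ndufc1, a small accessory subunit of complex I, rose from 42.9 to 132 CPM (3.07 times, 2.11 to 4.51), Atp5o, a stalk subunit of complex V, from 41.1 to 90.8 CPM (2.21 times, 1.45 to 3.36) and Ndufa5 from 52.8 to 112 CPM (2.13 times, 1.47 to 3.08). Ndufa4 fell from 257 to 171 CPM (0.67, 0.52 to 0.84). The mt- protein genes were 1.63 times higher (1.60 to 1.66), with 6 of 12 called higher.

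In pericyte-like barcodes the members hardly differed, at 19965 and 20329.8 CPM (1.02, 0.99 to 1.05), with 5 of 74 called higher and 1 lower, where 10% of all genes were called higher and 13% lower. Ndufa1, which anchors the membrane arm of complex I, rose from 66.5 to 157 CPM (2.37 times, 1.56 to 3.67). It lies on the X chromosome, and the naive and EAE libraries also differ in sex-linked transcripts. The other 2 X-linked members, Cox7b and Ndufb11, were at 0.88 (0.61 to 1.25) and 0.79 (0.58 to 1.05). The parts of sex and disease state in these values cannot be told apart and were not tested. Ndufa13, also known as GRIM19, rose from 145 to 273 CPM (1.88 times, 1.41 to 2.54). Ndufa8 fell from 141 to 89.7 CPM (0.64, 0.43 to 0.94). Ndufv1, the NADH-binding subunit, was called higher at 1.80 (1.16 to 2.84), but among barcodes of at least 1000 UMIs its log2 ratio was -0.31, and 15 members were called in either direction. The mt- protein genes were 1.42 times higher (1.39 to 1.44).

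By summed level, monocyte/macrophage-like barcodes of the EAE libraries combined higher members with lower mt- transcripts than microglia-like barcodes. Judged by their own markers, 88.4% of the monocyte/macrophage-like barcodes of EAE TRAIL- kept that class, but only 59.3% of those of EAE TRAIL+ and 36.6% of those of naive TRAIL+. The member ratio was 1.25 in TRAIL- (1.20 to 1.29), with 15 of 58 called higher and 1 lower, where 27.7% of all genes were called higher and 24.6% lower. The share of members called higher was thus no larger there than that of all genes, while few members were called lower. For TRAIL+ the member ratio was 1.69 (1.64 to 1.74). Of 57 members past the floor 43 were called higher and 0 lower, where 26.1% of all genes were called higher and 24.6% lower. The mt- protein genes were at 0.64 in both (0.63 to 0.66 in each), with 8 of 12 called lower in TRAIL- and 9 of 12 in TRAIL+. Uqcrb stood at 202 CPM in monocyte/macrophage-like against 92.1 CPM in microglia-like barcodes of EAE TRAIL-, and at 228 against 79.5 CPM in EAE TRAIL+. Cox5b stood at 261 against 132.5 CPM and at 291 against 91.7 CPM. Ndufb8 showed the largest ratio of the called members in TRAIL+, at 182 against 44.8 CPM (4.06, 3.04 to 5.40). In EAE TRAIL- it stood at 97.6 against 77.6 CPM, which did not reach the 1.5-fold call. Atp5g2 was the 1 member called lower in TRAIL-, at 137 against 269.9 CPM (0.51, 0.39 to 0.67). Glycolysis genes stood further apart than the members, at 2.97 times in TRAIL- (11 of 13 called higher, 1 lower) and 2.81 times in TRAIL+ (11 of 13 higher, 2 lower). The naive TRAIL+ sum of this class, at 7621 CPM, came mostly from another fine cluster (59 of 82 barcodes, led by Pf4, Cbr2 and Mrc1) than the EAE sums, so no comparison with disease state was made. With factors over all genes with a UMI the TRAIL- ratio was 1.40 with 25 called.

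Cox6a2, the muscle-type isoform of complex IV subunit 6a, was measured in microglia-like barcodes at low levels. It stood at 1.96 CPM in naive TRAIL- (1 UMI), 4.80 CPM in naive TRAIL+ (15 UMIs), 30.7 CPM in EAE TRAIL- (19 UMIs) and 19.5 CPM in EAE TRAIL+ (64 UMIs). Its share of Cox6a1 plus Cox6a2 was 3.37% in naive TRAIL+ (1.90% to 5.50%) and 11.4% in EAE TRAIL+ (8.90% to 14.3%), and 1.56% (0.04% to 8.40%) and 13.4% (8.25% to 20.1%) in the TRAIL- libraries, so the intervals of naive and EAE did not overlap in TRAIL+. Outside this class, Cox6a2 stood at 17.0 CPM (6.83 to 35.0) in monocyte/macrophage-like barcodes of EAE TRAIL+, from 7 UMIs, close to the microglia-like level of that library, and at 13.8 CPM in astrocyte-like barcodes of naive TRAIL+, from 3 UMIs. Endothelial-, pericyte- and choroid plexus-like sums held at most 1 Cox6a2 UMI each. The gene (chr7:128205435-128206387, GRCm38, minus strand) lies inside Itgad on the opposite strand, and Itgax lies next to Itgad; both are integrin genes of myeloid cells. Itgad itself was at 1.52 to 3.23 CPM in the 4 microglia-like sums, and none of the barcodes with Cox6a2 held an Itgad UMI. At so low an Itgad level almost no barcode could hold both, so this absence says nothing about the source of the Cox6a2 counts. An Itgax UMI was held by 0 of 1 and 1 of 12 barcodes with Cox6a2 in naive TRAIL- and naive TRAIL+. In EAE TRAIL- and EAE TRAIL+ it was held by 2 of 11 and 3 of 43. The share of all microglia-like barcodes with an Itgax UMI was not counted, so these counts do not show whether the 2 genes were found together. Itgax ran in the same direction as Cox6a2, at 1.96 and 9.59 CPM in the TRAIL- and TRAIL+ libraries of naive mice against 43.6 and 37.5 CPM in those of EAE mice. Monocyte/macrophage-like barcodes held Itgax at 79.4 CPM with 0 Cox6a2 UMIs in EAE TRAIL-, and at 65.6 CPM with Cox6a2 at 17.0 CPM in EAE TRAIL+.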

How the data were processed

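The 4 libraries were made by inDrops version 3 from sorted cells, per the labels' protocols. The deposited tables hold UMI counts per barcode and gene symbol, and the authors applied no scaling that the files show. Alignment used Bowtie and genome GRCm38, per the submitters' processing notes; the sources used here do not give the version of Bowtie, the annotation, the treatment of reads with several matches or the use of strand. Barcodes with at least 500 UMIs and at most 20% mt- UMIs were kept. Members and gene lists were chosen with earlier results of these data known.

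For clustering, each barcode was scaled to 10000 UMIs before a log transform. The 2000 most variable genes without members and mt- genes, 30 components and 15 neighbours gave 8 broad Leiden clusters (resolution 0.1), named from marker lists, and 15 fine clusters (resolution 1; scanpy 1.11.5). A broad cluster needed at least 3 markers of its list among its leading genes. Scrublet called 77 barcodes (0.975%) as doublets, between 4 and 41 per library, and they were kept in the values given and left out in an alternative. UMIs were summed per class and library (at least 50 barcodes) and divided by the sum's total to give CPM, with exact Poisson intervals; ratios and shares have exact Clopper-Pearson intervals (scipy 1.17.1). A count of 3 stood as floor where a sum had 0. Genes were called at 1.5-fold among those with a mean of 50 CPM over the pair and 10 UMIs expected in the smaller sum. The calling was tested on simulated pairs of sums with counting error only, in which 200 genes differed 2-fold. At the depths of the microglia-like TRAIL+ and TRAIL- pairs, 87% and 83.5% of these were called in the right direction. Of unchanged genes, 0% and 5.31% were called. No p-value was computed, since each group has 1 library, and UMIs of a barcode are not independent samples of a condition.

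Named genes are the isoform pairs, the members called in a comparison (at most 12 in each direction), the members with most UMIs and the core subunits of each complex, and the member of each complex with the widest range over the sums. Of the genes this rule takes in, 1 is not reported here. Positions came from GENCODE M21, which matched 86 of 87 members. Comparisons of astrocyte-like with microglia-like barcodes, of pericyte-like with endothelial-like barcodes, of monocyte/macrophage-like with microglia-like barcodes in EAE TRAIL+ and within fine clusters were added after the data were seen. Alternatives covered depth and mitochondrial thresholds, denominators, scaling factors (edgeR 4.0.16, DESeq2 1.42.0 in R 4.3.3), doublets, class definition, assembly factors and the expression floor.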

Additional observations from a re-analysis of the deposited data

Results flagged for a closer look

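The name rule set aside Ndufb1-ps, whose symbol marks it as a pseudogene of a complex I subunit, yet its column held 1673 UMIs over all listed barcodes. It stood at 31.4 and 46.4 CPM in microglia-like barcodes of the naive TRAIL- and TRAIL+ libraries, 123 and 91.1 CPM in those of the EAE libraries, 74.2 and 121 CPM in endothelial-like barcodes of naive TRAIL- and EAE TRAIL-, 161 and 217 CPM in pericyte-like barcodes of the same libraries, and 482 CPM in choroid plexus-like barcodes (412 to 561). Monocyte/macrophage-like barcodes of EAE TRAIL- and EAE TRAIL+ held 258 and 260 CPM, above the pericyte-like levels, although their summed member levels were below those of pericyte-like barcodes. No gene column bore the symbol Ndufb1 alone, so Ndufb1-ps was the only column of that name. Whether its counts come from a functional gene was not tested.

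Ndufa4 differed in opposite directions between classes of the TRAIL- fraction. Its EAE over naive log2 ratio was 0.77 in microglia-like barcodes, from 58.9 to 100.2 CPM, and -0.59 in endothelial-like barcodes, from 257 to 171 CPM. With 1 library per group the difference was not tested. In the TRAIL+ fraction microglia-like barcodes held 63.6 and 58.8 CPM (0.92, 0.75 to 1.13), which is not called in either direction.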

How the results depend on the processing

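Of 170 alternative values for the summed ratios and counts of calls planned as main results, 122 stayed within counting error or within 1.5 times the count, and 48 moved. No paired analysis was possible because the labels give no replicate numbers and each group has 1 library. Comparisons are named here by class: microglia-like TRAIL+ and TRAIL- (EAE over naive), endothelial- and pericyte-like TRAIL- (EAE over naive), microglia-like naive and EAE (TRAIL+ over TRAIL-), endothelial- and pericyte-like over microglia-like (naive TRAIL-), and monocyte/macrophage-like over microglia-like (EAE TRAIL-). With TMM factors over genes past the floor, the summed ratios were 1.38 (microglia-like TRAIL+), 1.78 (TRAIL-), 2.04 and 3.39 (endothelial- and pericyte-like over microglia-like), 1.20 (monocyte/macrophage-like) and 1.64 (the same in EAE TRAIL+). Barcodes of at least 1000 UMIs gave 1.16 (endothelial-like), 1.09 with 15 calls (pericyte-like), 0.801 (microglia-like EAE) and 1.30 (monocyte/macrophage-like). Classes taken from a barcode's own markers gave 1.60 (microglia-like TRAIL-), 0.986 (pericyte-like), 1 call (microglia-like naive), 0.811 with 7 calls (microglia-like EAE) and 1.82 (monocyte/macrophage-like in EAE TRAIL+). Without a floor on low counts, calls in either direction numbered 31 and 61 (microglia-like TRAIL+ and TRAIL-), 21 (endothelial-like), 15 (pericyte-like), 23 and 26 (microglia-like naive and EAE) and 31 (monocyte/macrophage-like).

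The following were chosen after seeing the data. TMM factors over all genes with a UMI gave 1.20 with 3 calls (microglia-like TRAIL+), 1.58 (TRAIL-), 1.02 (endothelial-like), 1.05 (pericyte-like), 1.15 with 5 calls (microglia-like naive), 0.913 with 2 calls (microglia-like EAE), 2.53 and 3.29 (endothelial- and pericyte-like over microglia-like) and 1.40 with 25 calls (monocyte/macrophage-like). Leaving out barcodes under 1% microglia markers gave 1.60 (microglia-like TRAIL-), 1 call (naive), 0.828 with 6 calls (EAE) and 1.34 (monocyte/macrophage-like). Without fine cluster 12 the values were 1.25 with 5 calls (microglia-like TRAIL+), 1 call (naive) and 0.751 (EAE). Without the fibroblast cluster the pericyte-like ratios were 0.982 (EAE over naive) and 4.14 (over microglia-like). A denominator without mt- and ribosomal protein genes gave 1.38 and 1.77 (microglia-like TRAIL+ and TRAIL-). Counting Ndufa4 and Ndufa4l2 in complex IV gave pericyte-like over microglia-like ratios of 4.32 (complex I) and 4.27 (complex IV). For single genes, 2 values turned: at 1000 UMIs Ndufv1 in pericyte-like EAE over naive was -0.31 and Ndufv2 in endothelial-like over microglia-like was -0.35 on the log2 scale. The causes were not tested.

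Every summed ratio kept its side of 1 except the microglia-like naive and pericyte-like EAE ratios, both near 1. Depth limits single members: in TRAIL- microglia-like sums, at 509084 and 618842 UMIs, members under the floor were not called.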
